A study of Homo sapiens with 3 samples.

Results

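Glypicans are heparan sulfate proteoglycans held on the cell surface by a GPI anchor, and heparan sulfate is the sulfated sugar chain through which they bind growth factors and morphogens. The levels of 10 genes of this system were read from RNA-seq of SH-SY5Y, an established human line of neuroblastoma, a tumour of the sympathetic lineage: the 6 glypican genes GPC1 to GPC6, and EXT1, EXT2, NDST1 and SULF2, which encode enzymes that build or edit the chain. The genes were taken by name, through the GENCODE 29 annotation, from a table of 60660 Ensembl identifiers (59152 names after identifiers that share a name were collapsed). There were 3 libraries of 1 group, each from a separate flask of untreated cells at about 60% confluency, and the labels name no treatment, no genotype change and no second line. The comparisons are therefore between genes of the same libraries and with a fixed level. All values come from 1 cell line, so p-values rest on the spread between flasks only. For the tests against a fixed level, that spread was pooled in part across genes.

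Heparan sulfate is built in the Golgi on a short linker of sugars joined to serines of a core protein. The polymerase made of EXT1 and EXT2 extends the chain, N-deacetylase/N-sulfotransferases such as NDST1 replace acetyl with sulfate groups, and an epimerase and O-sulfotransferases complete the pattern. Outside the cell, the sulfatase SULF2 removes sulfates from glucosamine, and heparanase cuts the chain. In the developing nervous system these chains present ligands such as fibroblast growth factors, Wnts and midkine to their receptors, and GPC2 is known as a surface antigen of neuroblastoma.

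The values deposited by the authors were FPKM, which relate the fragments of a gene to its length and to the size of the library, so that levels of genes can be compared per length. Depth was estimated from the even steps of low values at about 21600000, 28600000 and 43500000 reads in replicates 1, 2 and 3. Errors are SDs over the 3 libraries (n = 3). Each gene was tested against 1 FPKM on log2(FPKM + 0.1) with limma across all 31736 genes with a value above 0, and calls are at a Benjamini-Hochberg adjusted p under 0.05. The markers of the line itself were present, with 10 of 10 noradrenergic neuroblast genes called above 1 FPKM (summed level 4985 to 5138 FPKM). Of the markers of other cells, 0 of 6 immune and 0 of 5 endothelial genes were called above by limma (also 0 at an unadjusted p under 0.05), with the T-cell gene CD3E and the endothelial gene CDH5 listed at 0. Of 6 fibroblast genes 5 were called above (summed level 109 to 120 FPKM), mostly from THY1 (60.1 ± 1.97 FPKM) and PDGFRB (29.8 ± 1.91), and their part in the levels below was not tested. For comparison, 70.6% of protein-coding genes tested were called above and 24.6% below, so a call above does not by itself mark a cell type.

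Of the 10 genes, 8 were called above 1 FPKM and 2 below, where 45.5% of all genes tested and 70.6% of protein-coding genes tested were called above and 43.7% and 24.6% below. Their median was 14.9 FPKM, beside 1.08 FPKM for all genes tested and 9.13 FPKM for protein-coding genes tested. All 4 enzymes and 4 of the 6 glypicans were above. Against 5 FPKM, 6 members were above and 3 below, beside 32.9% and 60.1% of all genes tested (56.6% and 37.4% of protein-coding genes). Against 0.5 FPKM, 8 were above and 1 below, beside 50.2% and 34.6% (74.2% and 19.7%). The enzymes lay within a range of 2.72-fold between their means, while the glypicans spanned 492-fold, from GPC2 at the top to GPC4 at the bottom. These spans depend on which genes were taken, since the whole glypican family is included but not the low paralogs of the enzymes. Among those left out are NDST4 (mean 0.00433 FPKM), a paralog of NDST1, and SULF1 (listed at 0), the paralog of SULF2.

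**Figure D1:**
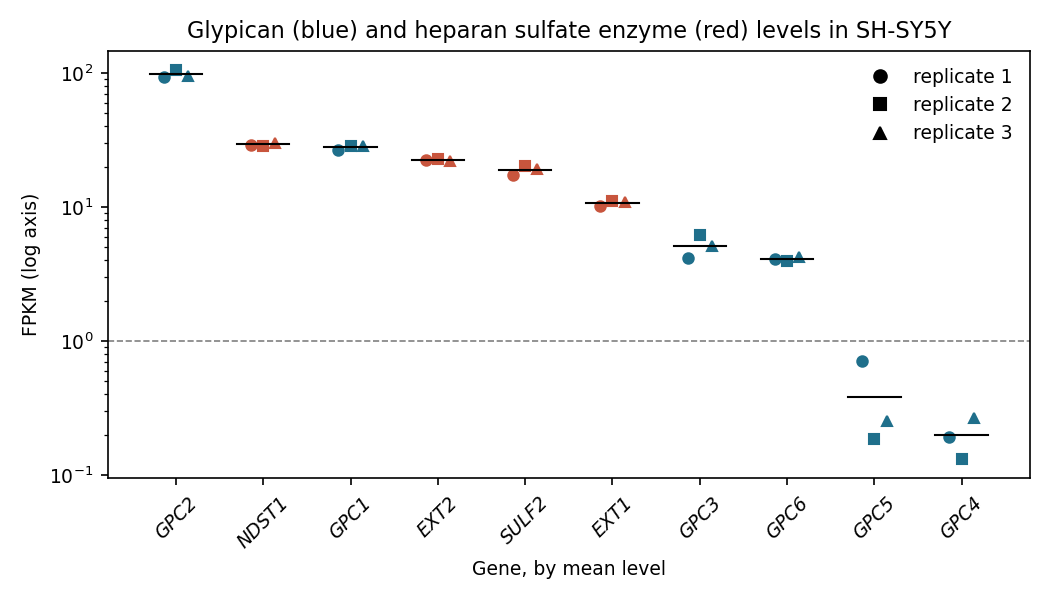
FPKM of the 10 genes (log axis) in the 3 libraries, one symbol per replicate, with the mean as a bar and the level of 1 FPKM dashed. GPC2 stands apart at the top, the enzymes lie together between 10.2 and 30.3 FPKM, and GPC5 and GPC4 lie below the line in every library.

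GPC2, the glypican of developing neurons, was the highest of the 10 (chromosome 7, 100169606 to 100177372, minus strand, ENSG00000213420). It stood at 93.3, 104.9 and 94.5 FPKM in replicates 1, 2 and 3, a mean of 97.5 ± 6.37. The 3 libraries lay close together, and the lowest of them was above every value of the other 9 genes. On the log2 scale the level was 6.47 above 1 FPKM (SE 0.0769, limma adjusted p = 2.99e-05), and 94.2% of protein-coding genes had a lower mean. GPC2 made up 72.1% ± 0.965 of the summed FPKM of the 6 glypicans.

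GPC1, a glypican of brain and skeletal tissues that binds fibroblast growth factors (chromosome 2, 240435671 to 240468078, plus strand), stood at 26.6, 28.4 and 28.7 FPKM (mean 27.9 ± 1.11). It was called above 1 FPKM (limma adjusted p = 2.99e-05) and made up 20.7% ± 0.888 of the glypican sum. GPC2 exceeded it within libraries by 1.80 ± 0.08 on the log2 scale, in each of the 3 flasks, a ratio of means of 3.49. With 3 libraries, an exact sign-flip test (two-sided) cannot give a p below 0.25, which was the p and the adjusted p of each of the 9 pairs of genes compared, so none of the pair differences could pass the threshold. GPC1 and GPC2 together left 7.27% ± 0.148 of the glypican sum to the rest of the family.

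GPC3, a glypican that limits Hedgehog signalling and serves as an antigen of liver cancer (chromosome X, 133535745 to 133985895, minus strand), stood at 4.18, 6.18 and 5.10 FPKM (mean 5.15 ± 1.00). GPC6, which is required for growth of the long bones (chromosome 13, 93226842 to 94407401, plus strand), stood at 4.11, 3.98 and 4.24 FPKM (mean 4.11 ± 0.132). The limma adjusted p against 1 FPKM was 0.000606 for GPC3 and 0.000128 for GPC6, so both were above it, and their ranges overlapped. GPC3 varied between flasks by 19.5% of its mean and GPC6 by 3.21%. For GPC3 the lowest library was replicate 1 and the highest replicate 2, whose counting intervals (exact Poisson, 95%, on reads estimated through the longest coding transcript) were 3.64 to 4.78 and 5.59 to 6.79 FPKM and did not overlap. At a level of 5 FPKM, GPC6 was called below (log2 -0.28, limma adjusted p = 0.0245) and GPC3 neither (adjusted p = 0.877).

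GPC5 and GPC4 were the 2 members called below 1 FPKM. GPC4, known as a synapse-promoting factor released by astrocytes (chromosome X, 133300103 to 133415490, minus strand), stood at 0.194, 0.132 and 0.269 FPKM (mean 0.198 ± 0.0686), or about 20, 18 and 56 reads. It lay 1.91 below the level (log2 -1.91, SE 0.164, limma adjusted p = 0.00144). GPC5, whose locus is gained in rhabdomyosarcoma (chromosome 13, 91398607 to 92873682, plus strand), stood at 0.71, 0.186 and 0.254 FPKM (mean 0.383 ± 0.285), or about 42, 15 and 30 reads. Replicate 1 was high: its counting interval of 0.508 to 0.953 FPKM did not overlap those of replicate 2 (0.106 to 0.314) and replicate 3 (0.169 to 0.357). The call for GPC5 (log2 -1.34, SE 0.364, limma adjusted p = 0.0344) was lost without replicate 2 (adjusted p = 0.148) and without replicate 3 (0.129), and was kept without replicate 1 (0.00506). Read estimates and intervals cover counting error only and rest on 1 transcript per gene.

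The low glypicans lie beside expressed ones on the genome. GPC4 is 120 kb from GPC3 on chromosome X, on the same strand, and its level differed from that of GPC3 by -4.15 ± 0.53 (log2), downward in 3 of 3 libraries. GPC5 is 353 kb from GPC6 on chromosome 13, also on the same strand, and GPC6 exceeded it by 3.28 ± 0.78 in 3 of 3 libraries. GPC4 was also lower than GPC6, which belongs to the same subfamily, by a log2 difference of -3.84 ± 0.29, and GPC3 exceeded GPC5, the other member of its own subfamily, by 3.58 ± 1.06. Within each of these neighbour pairs and each subfamily pair, the ranges over libraries did not overlap. GPC4 and GPC5 themselves could not be ordered, since their ranges overlapped and GPC5 was the higher in 2 of 3 libraries.

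The start regions of the glypican genes were described beside their levels, and a link between base composition and level was not tested. The 250 bases before the start, from RefSeq on GRCh38.p14, are shown for the highest glypican GPC2 (chr7:100177382-100177631, minus strand), for GPC6, which is poor in G and C (chr13:93226557-93226806, plus strand), and for the lowest, GPC4 (chrX:133415490-133415739, minus strand), each 5′ to 3′. Capitals mark matches to 2 motifs, each searched on both strands. The first is the GC box, spelled GGGCGG or, on the other strand, CCGCCC. The second is the box spelled CCAAT, which reads ATTGG on the other strand. No match overlapped another here.
GPC2: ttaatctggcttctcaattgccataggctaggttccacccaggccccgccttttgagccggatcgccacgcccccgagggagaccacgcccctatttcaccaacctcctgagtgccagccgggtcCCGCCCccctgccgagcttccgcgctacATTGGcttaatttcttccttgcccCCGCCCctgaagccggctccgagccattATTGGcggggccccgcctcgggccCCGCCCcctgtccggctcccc
GPC6: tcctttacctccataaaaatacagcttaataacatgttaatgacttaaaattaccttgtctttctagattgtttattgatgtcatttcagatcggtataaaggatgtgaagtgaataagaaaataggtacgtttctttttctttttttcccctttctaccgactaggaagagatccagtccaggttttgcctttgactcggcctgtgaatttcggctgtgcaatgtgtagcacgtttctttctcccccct
GPC4: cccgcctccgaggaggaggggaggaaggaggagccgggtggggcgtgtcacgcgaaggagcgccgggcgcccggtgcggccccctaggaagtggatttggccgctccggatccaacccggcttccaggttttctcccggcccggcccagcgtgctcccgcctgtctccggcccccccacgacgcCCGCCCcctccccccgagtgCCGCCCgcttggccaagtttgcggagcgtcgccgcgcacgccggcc

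GPC2 held 3 GC boxes and 2 CCAAT boxes, GPC4 2 GC boxes and GPC6 neither of these motifs. Of 35116 RefSeq start regions of the same length, 42.6% held GGGCGG and 32.0% held CCAAT, so these matches are common. G and C made up 66.8% of the GPC2 region, 76.0% of that of GPC4 and 37.6% of that of GPC6, beside a median of 58.0%. GPC4 was richer in G and C than GPC2, and its level was 492-fold lower. GPC1 reached 84.0% with 4 GC boxes, and GPC5 62.4% with 2 GC boxes. The motif TATAAA, found in 10.7% of start regions, was in those of GPC5 and GPC6 and in 1 of the 3 regions listed for EXT2. The E-box CACGTG, the core site of MYC-family factors, was in none of the glypican regions with an entry and in 1 of the 4 regions listed for SULF2, and 6.34% of all start regions held it. These are matches of letters only, and whether these starts are used in SH-SY5Y was not tested. The region shown for GPC2 reaches into STAG3, which lies 0.191 kb from GPC2. Its motifs and base composition therefore cannot be assigned to GPC2 alone. RefSeq start regions were matched for 8 of the 10 genes, with 13 regions in all, and GPC3 and EXT1 had no entry.

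**Figure D2:**
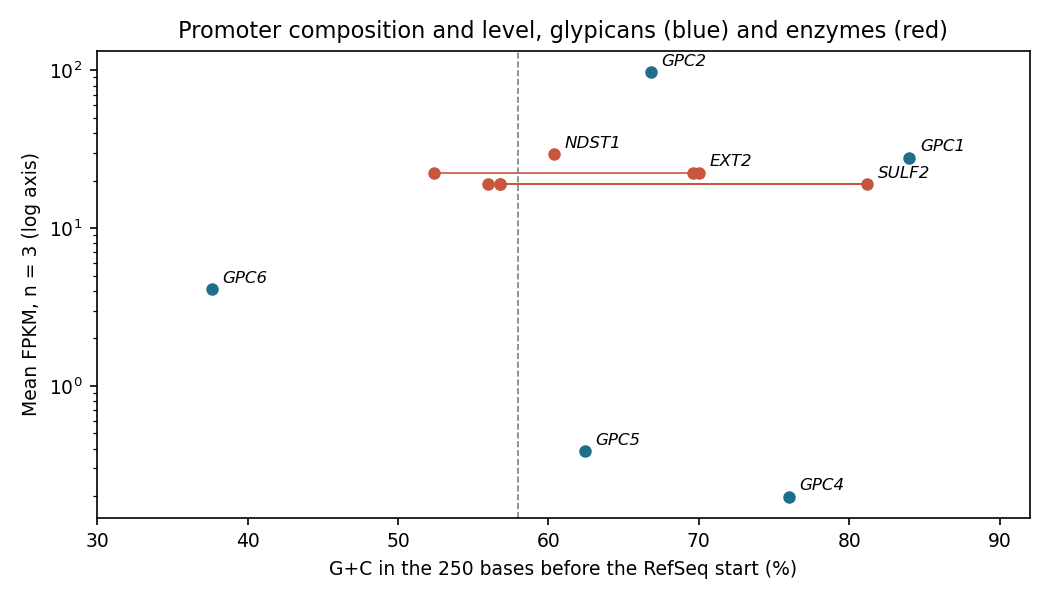
Share of G and C in the 250 bases before each RefSeq start (x axis, percent, dashed line at the median of 58.0% over all start regions) against mean FPKM (y axis, log scale, n = 3) for the 8 genes with an entry; a line joins the several starts of 1 gene. GPC4, the lowest in level, and GPC2, the highest, both lie to the right of the dashed line. GPC6 is the poorest in G and C at 37.6%. A link between composition and level was not tested.

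EXT1 and EXT2, the partners of the polymerase, differed in level. EXT2 (chromosome 11, 44095549 to 44245429) stood at 22.6, 22.6 and 22.1 FPKM (mean 22.4 ± 0.296), the smallest spread of the 10 genes at 1.32% of its mean. EXT1 (chromosome 8, 117794490 to 118111853) stood at 10.2, 11.1 and 10.9 FPKM (mean 10.8 ± 0.457). The ranges did not overlap, and EXT1 differed from EXT2 by -1.05 ± 0.07 (log2), downward in 3 of 3 libraries (ratio of means 0.480, exact p = 0.25). Against 1 FPKM the limma adjusted p was 4.50e-05 for EXT1 and 2.99e-05 for EXT2.

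NDST1, the N-deacetylase/N-sulfotransferase that opens the chain to further modification (chromosome 5, 150485818 to 150558211), was second of the 10 at 29.1, 28.6 and 30.3 FPKM (mean 29.3 ± 0.860, limma adjusted p = 2.99e-05). Its range overlapped that of GPC1. Its paralog NDST2 stood at 9.88 ± 0.559 FPKM, lower by a ratio of means of 2.97, and the difference was steady (1.56 ± 0.04 on the log2 scale, 3 of 3 libraries). The other paralogs were called below 1 FPKM, NDST3 at 0.140 ± 0.0351 FPKM and NDST4 at 0.00433 ± 0.00751. The family thus comprised 2 genes above and 2 below, beside 70.6% and 24.6% of protein-coding genes tested.

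SULF2, the sulfatase that edits finished chains at the cell surface (chromosome 20, 47656348 to 47786616), stood at 17.4, 20.3 and 19.3 FPKM (mean 19.0 ± 1.48, limma adjusted p = 4.15e-05). Its paralog SULF1 was listed at 0 in all 3 libraries, where 3 reads would have given 0.0252, 0.0190 and 0.0125 FPKM, and no fold is given. SULF2 acts on 6-O-sulfates, not on the N-sulfates that NDST1 adds, and NDST1 exceeded it by a log2 difference of 0.63 ± 0.12, again in each flask. SULF2 overlaps NCOA3 on the other strand by 530 bases, and NCOA3 stood at 10.9 ± 1.28 FPKM. No source used here states whether the counting used strand, so the value of SULF2 is uncertain to that extent. Genes on the other strand of GPC1, GPC3, GPC5, GPC6 and NDST1 were all lower than 0.4 FPKM in mean, and GPC2, GPC4, EXT1 and EXT2 had no overlapping gene.

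Ordered by mean FPKM, the genes ran GPC2, NDST1, GPC1, EXT2, SULF2, EXT1, GPC3, GPC6, GPC5 and GPC4. Of the 9 steps between neighbours, 3 had overlapping ranges over libraries: NDST1 with GPC1 (log2 difference 0.07 ± 0.06), GPC3 with GPC6 (0.30 ± 0.30) and GPC5 with GPC4 (0.57 ± 0.80). The widest step, 10.7-fold, lay between GPC6 and GPC5. Among genes of like level (within 0.5 on the log2 scale), 80.5% had a smaller SD of log2 values than GPC3 and 7.46% a smaller one than GPC6. For EXT2 the share was 3.46%, for NDST1 15.2%, for GPC2 58.4% and for GPC5 73.7%.

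**Figure D3:**
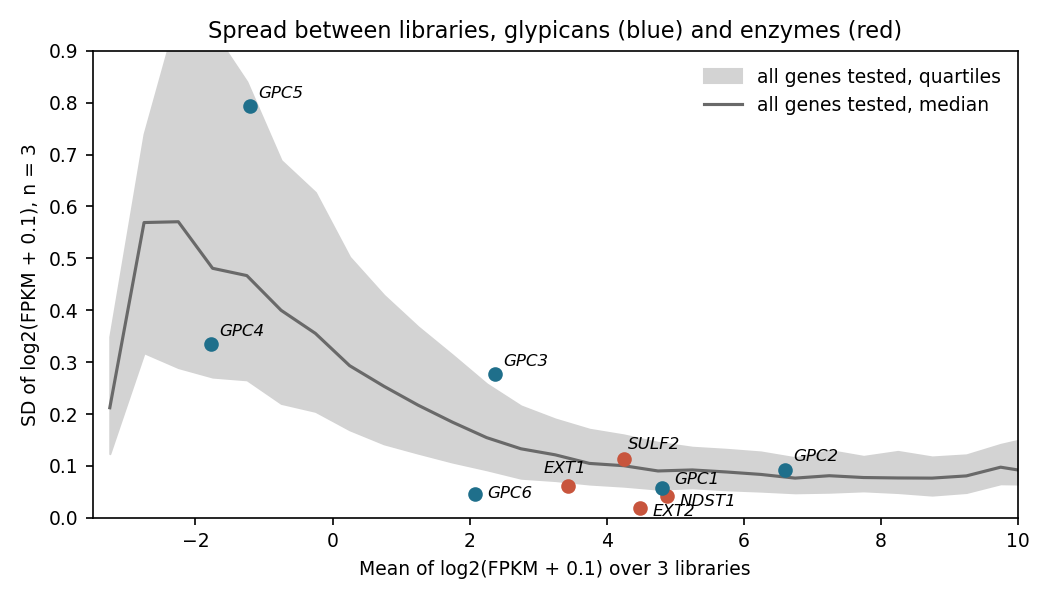
SD of log2(FPKM + 0.1) over the 3 libraries against the mean of the same values for the 10 genes (glypicans blue, enzymes red), with the median (line) and quartiles (band) of all genes tested in steps of 0.5. The axis ends at 0.9, below the top of the band at low levels. GPC3 (0.277) lies above the band while GPC6 (0.0453), EXT2 (0.0190), NDST1 (0.0420) and EXT1 (0.0614) lie below it.

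The rest of the pathway was described with 13 lists of synthesis, sulfation, breakdown and partner genes, which hold 92 genes besides the 10. Of these 92, 65 were called above 1 FPKM, 16 below and 5 neither, and 6 were listed at 0, with a median of 8.35 FPKM, close to the 9.13 FPKM of protein-coding genes tested. The 86 tested genes can be read against 70.6% above and 24.6% below among protein-coding genes.

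Genes of the linker, polymerase and donor supply lists were called above 1 FPKM with 1 exception, EXTL1, beside 70.6% of protein-coding genes tested. All 7 genes that build or modify the linker were called above. The highest were the xylose kinase gene FAM20B (39.4 ± 0.311 FPKM) and the glucuronosyltransferase gene B3GAT3 (19.3 ± 2.40). The lowest was XYLT1 (2.81 ± 0.0947), one of the xylosyltransferases that begin the chain. Of 5 polymerase and EXT-like genes 4 were above, and the related genes EXTL2 (37.2 ± 0.656 FPKM) and EXTL3 (35.6 ± 5.45), the latter for the enzyme that adds the first glucosamine, were each higher in mean than EXT1 and EXT2. EXTL1 (1.12 ± 0.454 FPKM) passed the test on neither side (limma adjusted p = 0.799). All 8 genes that supply nucleotide sugars and the sulfate donor were above, among them the sulfate activating enzyme genes PAPSS1 (70.3 ± 5.07 FPKM) and PAPSS2 (3.87 ± 2.04) and the UDP-glucose dehydrogenase gene UGDH (27.9 ± 2.18). The call for PAPSS2 was lost without replicate 1 (adjusted p = 0.0538), and the gene was high in replicate 3.

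Of 12 epimerase and O-sulfotransferase genes, 4 were called above 1 FPKM, 5 below and 1 neither, and 2 were listed at 0. The genes listed at 0 were not tested. Among protein-coding genes tested, 70.6% were called above and 24.6% below. The epimerase gene GLCE (5.07 ± 0.171 FPKM), the uronyl 2-O-sulfotransferase gene HS2ST1 (24.4 ± 1.94) and the glucosamine 6-O-sulfotransferase genes HS6ST1 (11.8 ± 0.741) and HS6ST2 (8.71 ± 0.764) were called above 1 FPKM, and HS6ST3 (0.287 ± 0.0390) below. Of the 7 genes for 3-O-sulfotransferases, whose rare modification forms binding sites for antithrombin and herpes simplex glycoprotein D, 0 were called above by limma, and 0 at an unadjusted p under 0.05. HS3ST6 (0.266 ± 0.141 FPKM), HS3ST2 (0.0203 ± 0.00289), HS3ST3B1 (0.00433 ± 0.00451) and HS3ST1 (0.00200 ± 0.00346) were called below, and HS3ST3A1 and HS3ST4 were listed at 0. HS3ST5 was the highest of the 7 at 1.30, 0.386 and 0.856 FPKM and was called neither (limma adjusted p = 0.417). It lies opposite HDAC2-AS2 (1.72 ± 0.441 FPKM), so its value is uncertain. The call for HS3ST6 was lost without replicate 2 (adjusted p = 0.0545).

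**Figure D4:**
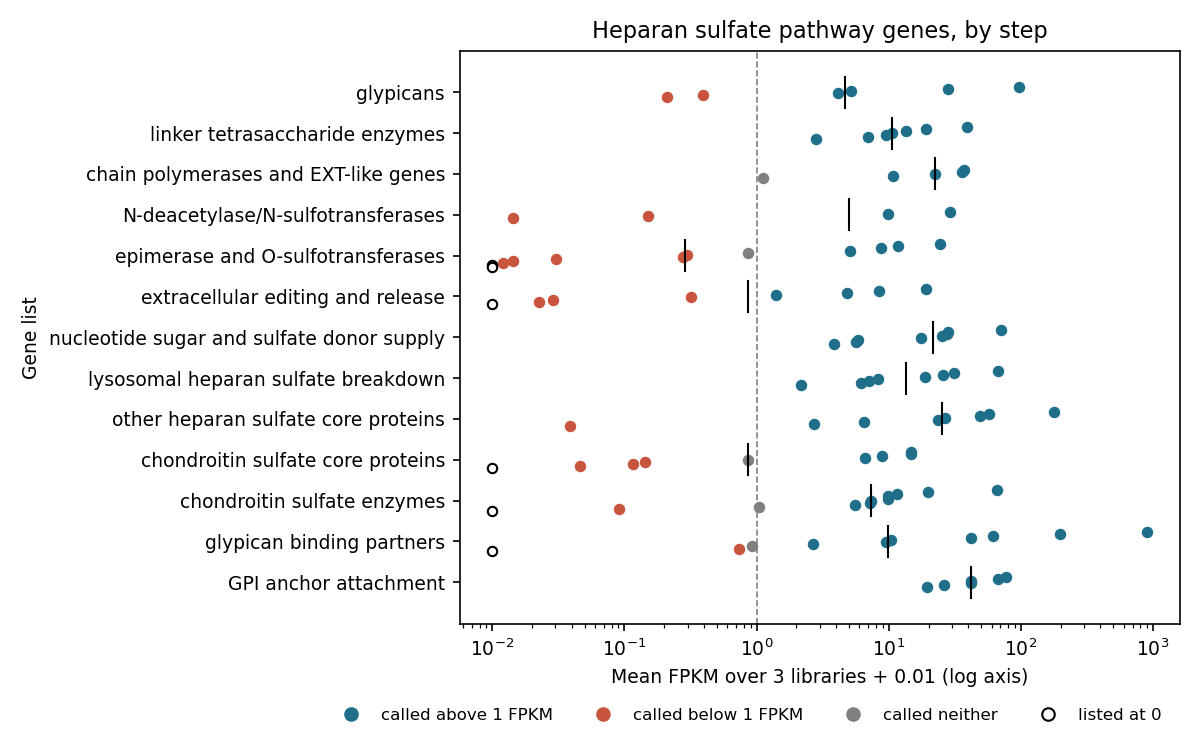
Mean FPKM over 3 libraries plus 0.01 (log axis) of each gene in 13 lists, coloured by the limma call against 1 FPKM (dashed), with open circles for genes listed at 0 and a bar at each list's median. Linker, sugar and sulfate supply, breakdown and GPI anchor genes all lie to the right of the line, while the epimerase and O-sulfotransferase list has a median of 0.276 FPKM.

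Of 8 genes listed for editing, cutting or release of the chains, SULF2 among them, 4 were called above and 3 below. SULF1 was listed at 0 and was not tested. Among protein-coding genes tested, 70.6% were called above and 24.6% below, to be set beside this list and the lysosomal and GPI anchor lists. Heparanase HPSE, the enzyme known to cut heparan sulfate within the chain, was called below 1 FPKM at 0.0187 ± 0.00902 FPKM (about 1, 4 and 3 reads), and its inactive relative HPSE2 was below at 0.310 ± 0.200. HPSE2 was highest in replicate 1 (0.541, 0.204 and 0.186 FPKM), as GPC5 was, and its call was lost without replicate 2 (adjusted p = 0.0923) and without replicate 3 (0.0607). The convertase gene FURIN, whose enzyme cuts glypican core proteins, was above at 8.45 ± 0.629 FPKM, and its relative PCSK5 was below at 0.0127 ± 0.00379. GPLD1 (4.83 ± 0.366 FPKM), whose enzyme acts on GPI anchors, was called above. It overlaps MRS2 (16.8 ± 0.265) and ALDH5A1 (10.3 ± 0.634) on the other strand. NOTUM, whose enzyme inactivates Wnt proteins, was called above at 1.39 ± 0.243 FPKM (limma adjusted p = 0.0454). Its call was lost without replicate 2 (adjusted p = 0.180) and without replicate 3 (0.179). All 8 lysosomal genes of heparan sulfate breakdown were above, from the iduronate sulfatase gene IDS (66.9 ± 2.35 FPKM) to ARSG (2.14 ± 0.281), which overlaps WIPI1 on the other strand (12.9 ± 2.89). All 6 genes of GPI anchor attachment and remodelling were above, with PIGT (77.7 ± 5.18 FPKM) and GPAA1 (67.2 ± 3.58) highest and PIGK (19.5 ± 1.46) lowest.

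Glypicans share the chain enzymes with other core proteins. Of the 8 other heparan sulfate core proteins tested, 7 were called above 1 FPKM, beside 70.6% of protein-coding genes tested. The syndecan gene SDC2 (179 ± 7.52 FPKM) and the basement membrane gene AGRN (57.0 ± 5.38) were highest, and TGFBR3 (0.0290 ± 0.0125) was called below. The 4 syndecans, which span the membrane, summed to 259, 254 and 249 FPKM and the 6 glypicans to 129, 144 and 133 FPKM. The ratio of these sums was 1.88 ± 0.118, and the ranges did not overlap. Within each family 1 gene held most of the sum, SDC2 among the syndecans and GPC2 among the glypicans.

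Chondroitin sulfate chains are built on the same linker. Of 9 of its core proteins 8 were tested and 4 were called above, beside 70.6% of protein-coding genes tested. The highest were NCAN (14.8 ± 0.750 FPKM) and DCN (14.7 ± 2.14). CSPG4 (0.133 ± 0.0447), BGN (0.106 ± 0.106) and ACAN (0.0363 ± 0.0474) were below, beside 24.6%. BCAN (0.856 ± 0.301) was neither and PTPRZ1 was listed at 0. DCN is also one of the fibroblast genes above. BGN lies opposite HAUS7 (26.6 ± 3.89 FPKM), and its call was lost without replicate 2 (adjusted p = 0.0532). Of 11 chondroitin sulfate enzyme genes 10 were tested and 8 were above, beside the same 70.6%. The polymerase gene CHSY1 was highest (65.6 ± 15.6 FPKM) and its partner CHPF next (19.8 ± 0.850). CHPF overlaps TMEM198 on the other strand (12.7 ± 2.44 FPKM). CSGALNACT1 (0.0813 ± 0.0841) was below, CHST15 (1.03 ± 0.133) neither, and CHSY3 was listed at 0. After rescaling to TPM, BCAN (adjusted p = 0.0491) and CHST15 (0.0310) were called below.

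Among 10 genes for proteins that bind glypicans, 9 were tested and 7 were called above, beside 70.6% of protein-coding genes tested. MDK, which encodes the heparin-binding growth factor midkine, stood at 918, 881 and 904 FPKM (mean 901 ± 18.6) and was the highest gene of all the lists, and it lay close together in the 3 flasks. CD81, a membrane protein that binds GPC3, stood at 198 ± 8.16 FPKM, the receptor phosphatase genes PTPRF at 61.5 ± 1.81 and PTPRS at 42.0 ± 2.74, and UNC5D, which encodes a guidance receptor bound by GPC3, at 10.3 ± 0.164. Of the synaptic partners of GPC4, GPR158 was called below at 0.722 ± 0.0406 FPKM, LRRTM4 neither at 0.910 ± 0.342, and LRRTM3 was listed at 0. LRRTM4 was called below after rescaling to TPM (adjusted p = 0.0446) and without replicate 2 (0.0340). The call for GPR158 was lost without replicate 1 (adjusted p = 0.0565) and without replicate 3 (0.0723).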

How the data were processed

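RNA of 3 SH-SY5Y flasks was sequenced as stranded mRNA libraries from 500 ng of total RNA with reads of 50 bases, per the labels' protocols. The table deposited by the authors holds 1 FPKM value per gene and library. Per the submitters' processing notes, the build was hg38 and the tools included TopHat2 2.1.1, Cufflinks 2.2.1, FastQC 0.10.1 and bcl2fastq. Their settings, the annotation and the use of strand in counting are not given here by any source.

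Identifiers were matched to GENCODE 29 on GRCh38 (57046 of 60660). A name shared by several identifiers (154 names) took the highest mean. Missing values in 28 genes, none of them among the 10 members, were left missing. FPKM are not counts, so limma 3.58.1 (R 4.3.3) tested the mean of log2(FPKM + 0.1) of each gene, in a two-sided fit with an intercept alone, against log2 of 1 FPKM plus the same pseudocount. Tested were genes above 0 in 1 or more libraries with at least 2 values. The pseudocount makes log2 differences of low genes smaller than they are. On simulated data with 31719 genes, 49% of 100 genes at 0.5 log2 from the level were called on the right side. At 1 log2 it was 79% of 100 genes, and 9% of 200 genes at the level were called. Each simulated gene had the SD seen over the 3 libraries, and the genes placed were drawn from those not far from the level, so the rates hold for that setting. Calls near the threshold, as for GPC5 and NOTUM, should be read beside that 9%. Pairs were tested with exact two-sided sign-flips. Other steps used Python 3.11.15, pandas 2.3.3 and scipy 1.17.1.

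Depth was estimated in genes with 1 transcript of at least 600 bases, with an assumed fragment of 200 bases: 97.5%, 97.8% and 97.5% of low values lay within 0.1 of whole reads, where chance gives 20%. A multiple of a depth fits as well, so the smallest was taken. Named were all members, pair genes, the 2 highest and the lowest gene of each list, and every list gene called below or listed at 0; other names were chosen after their values were seen. One gene that this rule names is not reported here. The members and lists were chosen with earlier results of these data known. With 1 group, no gene was named for a like pattern. Alternatives were pseudocounts of 1 and 0.01, 2 other filters, 2 rescalings, levels of 0.5 and 5 FPKM, each library left out, and summed values for shared names. Protein sequences were not used here.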

Additional observations from a re-analysis of the deposited data

How the results depend on the processing

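The 8 members called above 1 FPKM kept that count under all alternatives except the level of 5 FPKM, where 6 were called above. The 2 members called below became 1, as GPC5 lost its call, with a pseudocount of 0.01 (limma adjusted p = 0.0551), with no filter (0.0808), at a level of 0.5 FPKM (0.305), and when libraries were left out in turn (1 to 2 members). GPC4 was called below in all 13 settings. The count of genes called below was 40037 with no filter and 5921 when a mean of 0.1 FPKM was required, against 13853. Of the pathway genes, 18 were called below, 9 when a mean of 0.1 FPKM was required and 29 at a level of 5 FPKM. Fewer or more genes were tested under these filters.

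At a level of 5 FPKM the log2 difference turned negative for GPC6 (-0.28), ARSG (-1.19), CHST15 (-2.18), EXTL1 (-2.14), GPLD1 (-0.051), NOTUM (-1.79), PAPSS2 (-0.48), SDC4 (-0.87) and XYLT1 (-0.81), and at 0.5 FPKM positive for BCAN (0.62), GPR158 (0.45), HS3ST5 (0.53) and LRRTM4 (0.70), as the level moved past them. Rescaling to TPM moved every gene, before the pseudocount, by -0.47 (replicate 1), -0.54 (replicate 2) and -0.46 (replicate 3) on the log2 scale. It turned CHST15 (-0.41), EXTL1 (-0.37) and NOTUM (-0.025), and BCAN (-0.68), LRRTM4 (-0.61) and CHST15 were then called below. With each library left out in turn, CHST15 ran from -0.053 to 0.12, EXTL1 from -0.20 to 0.35 and HS3ST5 from -0.69 to 0.075. The alternatives run are no test of the pair differences, whose sign was alike in every library, or of the glypican shares. With 2 libraries the sign-flip test cannot fall below 0.5. No paired analysis was possible because the series has 1 group. Depth limits genes such as HPSE and HS3ST1, which rest on a few reads.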

Other observations

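The nearest protein-coding genes on either side of each glypican were looked up after the members' values were seen. GPC2 lies 0.191 kb from STAG3, which encodes a meiotic cohesin subunit (11.5 ± 0.355 FPKM), and 0.856 kb from the galactose sulfotransferase gene GAL3ST4 (3.53 ± 0.463), beside 97.5 FPKM for GPC2 itself. GPC3 lies between GPC4 and CCDC160 (0.124 ± 0.00737 FPKM), and TFDP3, on the other side of GPC4, stood at 0.00500 ± 0.00866. GPC6 lies 29.4 kb from DCT, a melanin synthesis gene of neural crest pigment cells (0.174 ± 0.0620 FPKM), with GPC5 on its other side. SLITRK5, the nearest coding gene on the other side of GPC5, is 3702 kb away and stood at 0.283 ± 0.0266 FPKM. GPC1 lies 11.3 kb from ANKMY1 (6.64 ± 1.59 FPKM), and OTOS, on its other side, was listed at 0.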
